A study of Mus musculus with 2 samples.

Results

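The chromatin around Zeb2 was described from every called EP300 peak and H3K4me1 region that overlapped a window of 1.3 Mb on mouse chromosome 2, from 44.7 Mb to 46 Mb (mm9). The window takes in Zeb2 and the stretch upstream of it. It held 55 of the 78725 called regions of the series, made up of 7 of 8451 EP300 peaks in replicate 1, 6 of 10351 in replicate 2 and 42 of 59923 H3K4me1 regions. Members were found by coordinates alone. The window was chosen by the tag count and fold enrichment of its strongest EP300 peak, so the level of that peak is a description and supports nothing further.

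The study mapped EP300 and H3K4me1 by chromatin immunoprecipitation and sequencing (ChIP-seq) in melan-a, a single line of immortalized melanocytes. The labels give its strain as C57BL/6 Ink4a -/-, so all libraries share the loss of that tumour suppressor locus, and the labels name no treatment. There was 1 sample for each antibody, each of 2 replicates. EP300 came as a separate peak list for each replicate, from 31439027 and 32355042 filtered tags, and H3K4me1 as 1 list of unknown depth. The labels do not tie the replicates to separate cultures, and their spread may be technical. The files hold no expression values, and the melanocyte label could not be checked against marker levels.

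Zeb2 encodes a zinc finger homeodomain protein, also called SIP1, that binds E-box sequences and mostly represses transcription. It acts in neural crest development and in the epithelial to mesenchymal transition, and the melanocyte lineage, which comes from the neural crest, needs it to differentiate. EP300 is a histone acetyltransferase recruited to active enhancers and promoters, whereas H3K4me1, histone H3 monomethylated at lysine 4, marks enhancers and is often low over the nucleosome-poor site where transcription factors sit.

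In the RefSeq annotation of another build, GRCm38.p6, Zeb2 lies on the minus strand. Its nearest protein-coding neighbours there are Gtdc1 on the downstream side and Acvr2a, an activin receptor gene, on the upstream side. Between Zeb2 and Acvr2a the annotation lists 22 further entries, of which 11 are long noncoding RNAs and 8 are pseudogenes, and none is protein-coding. An annotation of mm9 was not used here, so no peak is assigned to an exon, an intron or a start site. Distances are given from a reference position at 44.97 Mb, which is taken here to lie beside the 5′ end of Zeb2. This could not be checked without an mm9 annotation, and every use of "upstream" and "the Zeb2 side" rests on it. Positive distances run toward higher coordinates.

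The promoter sequence is shown because an EP300 peak of replicate 2 covered the reference position. RefSeq gives Zeb2 4 start sites in GRCm38.p6, and the 250 bases before the outermost and the innermost of them are printed 5′ to 3′ in the direction of transcription. Capitals mark matches to any of 8 motifs searched on both strands. These were CANNTG (E-box, which also covers the next 3), CACCTG (ZEB and SNAI type E-box), CATGTG and CACGTG (MITF type E-boxes), ACAAAG and ACAAT (SOX), TGANTCA (AP-1) and GGAATG (TEAD). MITF and SOX10, which the MITF and SOX motifs stand for, are regulators of melanocyte genes.
Zeb2 outermost start, GRCm38.p6 chr2:45117443-45117692, minus strand: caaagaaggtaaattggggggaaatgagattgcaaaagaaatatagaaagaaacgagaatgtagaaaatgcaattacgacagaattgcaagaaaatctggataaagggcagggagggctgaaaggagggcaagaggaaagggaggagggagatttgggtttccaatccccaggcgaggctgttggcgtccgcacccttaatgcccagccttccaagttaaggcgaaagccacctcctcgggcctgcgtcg
Zeb2 innermost start, GRCm38.p6 chr2:45110278-45110527, minus strand: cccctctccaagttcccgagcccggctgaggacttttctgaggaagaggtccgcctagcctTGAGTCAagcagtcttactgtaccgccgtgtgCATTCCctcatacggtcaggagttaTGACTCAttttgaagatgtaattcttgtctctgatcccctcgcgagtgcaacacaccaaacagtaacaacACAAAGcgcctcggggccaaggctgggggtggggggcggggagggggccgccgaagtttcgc

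The outermost promoter held none of the 8 motifs. The innermost held TGANTCA at 2 places, beginning 189 and 132 bases before the start. It also held GGAATG on the reverse strand, 157 bases before the start, and ACAAAG 62 bases before it. No E-box of the form CANNTG was found in any of the 4 Zeb2 promoters, whereas 66.2% of the 32817 mouse promoters of the same length held at least 1. The 4 are not separate sequences, since those at 45113280 to 45113529 and 45113254 to 45113503 overlap over most of their length. TGANTCA was present in 6.75% of those promoters, GGAATG in 12.6% and ACAAAG in 16.5%. A match is only a match of letters in this window, and these promoters could not be laid over the mm9 peaks.

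Most EP300 peaks in the window were found in a single list, as were most peaks of the whole lists. Of the 7 peaks of replicate 1, 2 overlapped a peak of replicate 2, where 42.9% of the whole list did. Of the 6 peaks of replicate 2, 2 overlapped a peak of replicate 1, where 34.8% of that list did. The overlapping peaks formed 2 shared loci, at 174.3 kb and 242.5 kb upstream of the reference position. Both lists had 5 peaks on the upstream side, and 2 peaks of replicate 1 and 1 of replicate 2 lay on the Zeb2 side. The upstream side is the longer, at 1.03 Mb against 270 kb. For their length, peaks of replicate 1 were denser on the Zeb2 side and those of replicate 2 upstream, with few peaks in each. The replicate 2 order rests on the peak that covers the reference position, counted as upstream because its summit lies 0.3 kb past it. Counted on the Zeb2 side, this peak would reverse that order. The locus at 242.5 kb alone held 310 of the 498 tags that replicate 1 had in the peaks of the window (62.2%). In replicate 2 it held 409 of 650 (62.9%). Shares this high were also found in other windows of the same size on chromosome 2. In replicate 1 the strongest peak held a median of 40.2% over 124 such windows with a peak, and 25 were higher. In replicate 2 the median was 37.0% over 126 windows, and 22 were higher. A window with a single peak has a share of 100%.

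**Figure D1:**
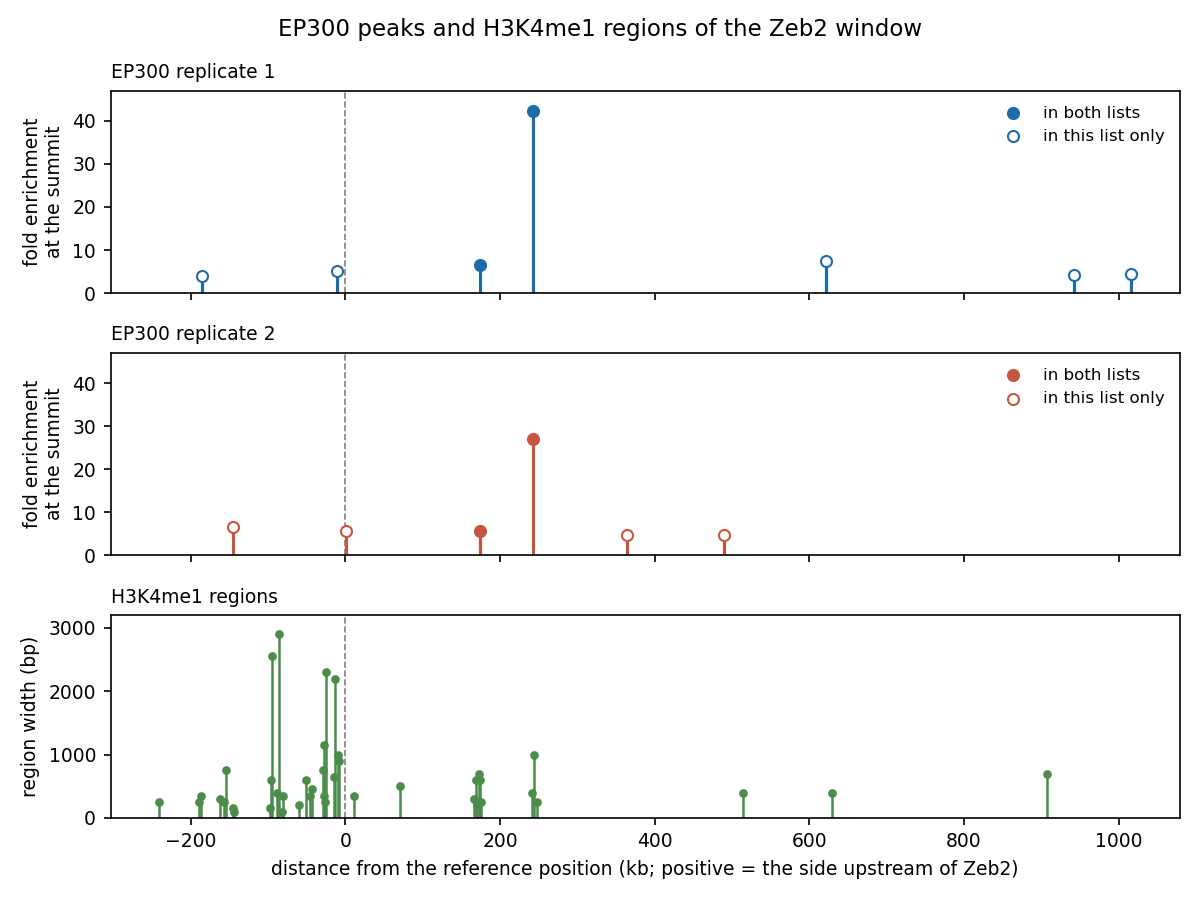
EP300 peaks of each replicate, as fold enrichment at the summit, and H3K4me1 regions, as width in bp, by distance in kb from the reference position (dashed line). Filled points are EP300 peaks found in both lists and open points those found in 1 list. A single EP300 locus at 242.5 kb, for which the window was chosen, rises to 42.25-fold and 26.97-fold. The widest H3K4me1 regions lie on the Zeb2 side.

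The strong locus lay 242.5 kb upstream and was placed alike by both replicates. Its replicate 1 peak ran from 45211671 to 45213247. The replicate 2 peak began 33 bp earlier and ended at 45213643, and the summits were 70 bp apart. Fold enrichment, the height of the summit over the local background, was 42.25 in replicate 1 and 26.97 in replicate 2. Significance, 10 times the -log10 of the caller's Poisson p-value, was 1975.5 and 1665.5. By significance the peak ranked 9 of 8451 and 12 of 10351. By mean rank the locus was 4 of the 3573 shared loci of the genome and the best of the 273 on chromosome 2.

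The replicates ordered differently by tags and by fold enrichment at this locus. Replicate 1 had 310 tags (exact Poisson 95% interval 276 to 347) and replicate 2 had 409 (370 to 451), intervals that cover counting error only. Per 1000000 filtered tags this was 9.86 (8.79 to 11.02) and 12.6 (11.4 to 13.9), so the higher tag count was in replicate 2 and the higher fold enrichment in replicate 1. The replicate 2 peak was also longer, at 2006 bp against 1577 bp, and the tags per kb of peak were close, at 196.6 and 203.9. On the log2 scale, fold enrichment was 0.65 higher in replicate 1, where the median difference over all shared loci was 0.10 (SD 0.53), and 85.4% of loci had a lower value. For tags, not scaled for depth, the log2 ratio of replicate 1 to replicate 2 was -0.40. The median over all shared loci was -0.16 (SD 0.53), and 30.1% had a lower value. The medians thus had the same opposite order, which is not particular to this locus.

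H3K4me1 beside the strong locus was sparse. The nearest regions were a region of 400 bp that ended 560 bp below the centre and a region of 1000 bp that began 1041 bp above it, and these ranked 37799 and 21218 of 59923. Their maximum log2 fold changes were 3.60 and 3.999, where the whole list had a median of 3.72. Both touched the EP300 locus, and both shared loci of the window had H3K4me1 within 1000 bp of their edges, as did 96.1% of shared loci. A gap was called where H3K4me1 lay within 1000 bp on each side of the centre but not over it. That held for 62.3% of shared loci, but the region above the strong locus was 41 bp too far. The locus therefore counted as having H3K4me1 on a single side, like 19.0% of shared loci, although it sat in an H3K4me1-free interval of 1600 bp. The class depends on the centre used. The centre of the replicate 2 peak, 741 bp and 860 bp from the flanks, counted as in a gap, and that of the replicate 1 peak did not. No further H3K4me1 region lay within 50 kb except a region of 250 bp that began at 45217450.

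H3K4me1 around the locus was low beside that at other EP300 loci of this strength. Among the 36 best-ranked shared loci, the upper 1% by mean rank, the other 35 had a median of 10950 bp of H3K4me1 within 50 kb of the centre (1000 to 40950 bp). The locus upstream of Zeb2 had 1650 bp, and 34 of the other 35 had more. Within 10 kb it also had 1650 bp, against a median of 4700 bp (600 to 14350 bp), and 31 of 35 had more. In EP300 enrichment it was near the top in replicate 1, where 2 of the 35 were higher, and nearer the middle in replicate 2, where 14 were higher. In tags, 11 were higher in replicate 1 and 3 in replicate 2. Of the 35, 26 had their centre in an H3K4me1 gap. These are descriptions of loci chosen for strength, with no test.

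**Figure D2:**
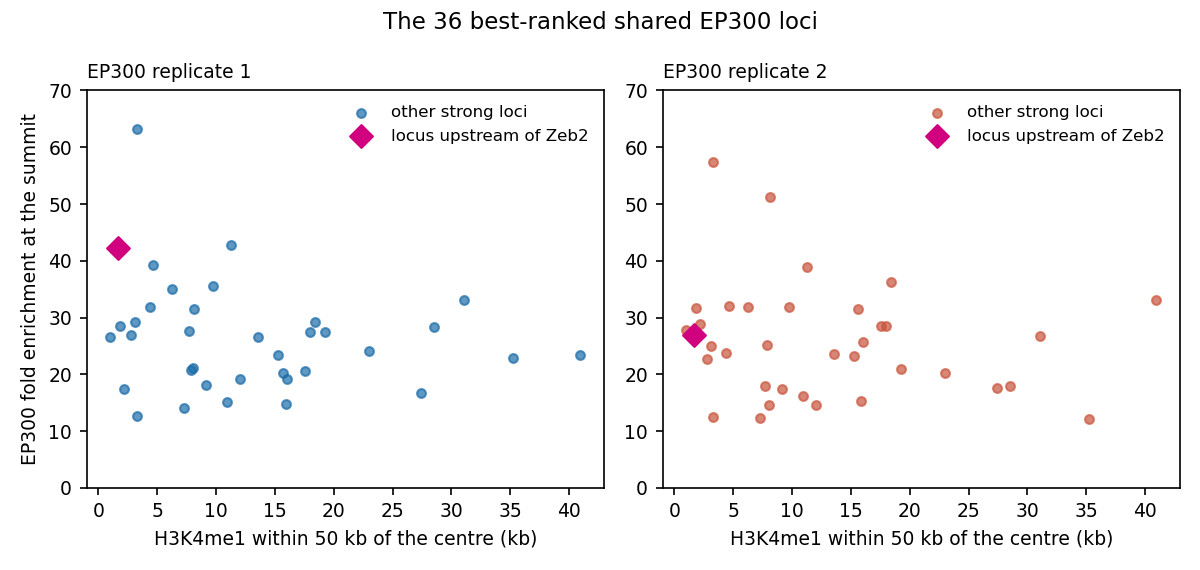
The 36 best-ranked shared EP300 loci, as EP300 fold enrichment at the summit in each replicate (vertical axis) against the H3K4me1-covered length within 50 kb of the centre in kb (horizontal axis). The diamond is the locus upstream of Zeb2, at 1650 bp of H3K4me1, and 1 of the other 35 loci lies to its left.

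The other shared locus, 174.3 kb upstream, was weak in EP300 and lay in a larger group of H3K4me1 regions than the strong locus. It ran from 45143897 to 45144787 in replicate 1 and from 45143771 to 45144776 in replicate 2, with summits 4 bp apart. Fold enrichment was 6.55 and 5.62, and the tag counts were 48 (exact Poisson 95% interval 35.4 to 63.6) and 66 (51.0 to 84.0). Its significance of 53.95 in replicate 1 was near the lowest of that list, 50.02, and only 16.5% of the list was lower. In replicate 2 its significance of 115.1 was above that of 75.6% of the list. By mean rank it was 3022 of 3573 shared loci and 228 of the 273 on chromosome 2.

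The centre of this weaker locus lay in an H3K4me1 gap of 900 bp. The flanking regions were 700 bp and 600 bp wide and ranked 26791 and 17805. They belonged to a group of 6 H3K4me1 regions from 45136450 to 45145899, among them a region of 600 bp at 45138650 that ranked 4336, the second best rank of the window. The centres of the shared loci were 68.1 kb apart, so neither had another shared locus within 50 kb. Toward lower coordinates, the next shared locus was outside the window, 658.3 kb from the weaker locus, at 44485385 to 44486699 (8.06-fold and 13.62-fold). Upstream the next lay 1295.9 kb from the strong locus, at 46507760 to 46508975 (22.98-fold and 13.98-fold).

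**Figure D3:**
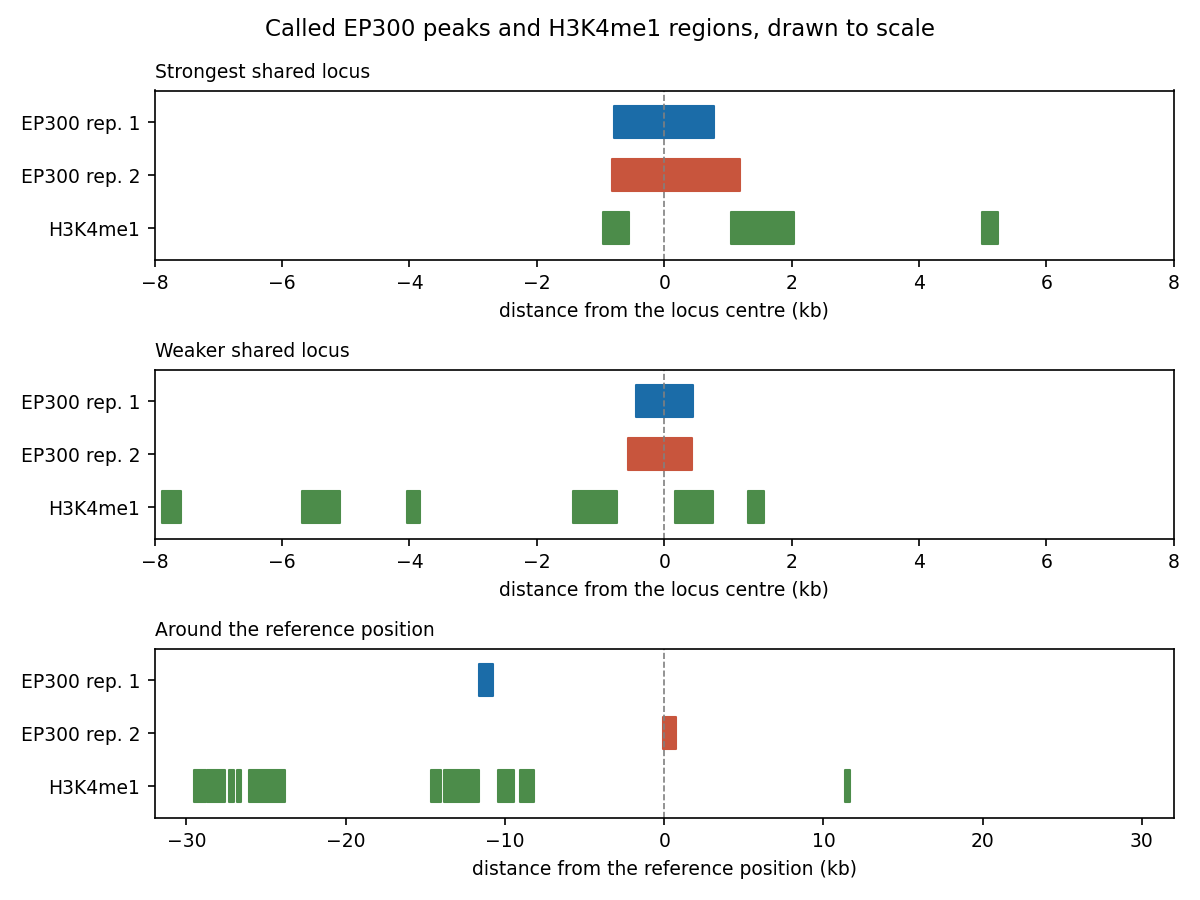
Called EP300 peaks of each replicate and H3K4me1 regions around the strongest shared locus, the weaker shared locus and the reference position, drawn to scale in kb. H3K4me1 leaves 1600 bp free around the strongest locus and 900 bp around the weaker one, and only a replicate 2 peak covers the reference position.

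Near the reference position the replicates gave different peaks. Replicate 2 had a peak from 44969927 to 44970717, with 35 tags, 5.59-fold enrichment and a significance of 51.84, above 8.94% of its list. Its summit lay 0.3 kb upstream of the reference position, and the nearest H3K4me1 region was 8.1 kb away. Replicate 1 had no peak there. Its nearest was 10.7 kb away, from 44958381 to 44959259, with 34 tags, 5.21-fold enrichment and a significance of 50.24, above 1.01% of its list. This replicate 1 peak, 879 bp long, lay within an H3K4me1 gap of 1200 bp, 32 bp from a region of 2200 bp and 291 bp from a region of 1000 bp, which ranked 4789 and 12945. Both peaks stood close to the threshold of their lists, so a missing partner in the other list does not show a lack of EP300.

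By tags and significance, the strongest peak found in a single list was on the Zeb2 side, in replicate 2. By fold enrichment it was second to an upstream peak of replicate 1, at 7.52-fold. It ran from 44824609 to 44826327, 145 kb from the reference position, with 83 tags, 6.55-fold enrichment and a significance of 107.71, above 73.5% of its list. It was 39.9 kb from the nearest replicate 1 peak, at 44784140 to 44784744 (26 tags, 3.95-fold), which touched an H3K4me1 region of 350 bp. The centre of the replicate 2 peak lay in an H3K4me1 gap of 1300 bp, but the flanking regions were only 150 bp and 100 bp wide and ranked 51989 and 54699.

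Farther upstream, single-list peaks had fewer tags than the median of 43 in each list, and none had H3K4me1 within 1000 bp. In fold enrichment the peak at 45591608 (7.52-fold) was above its list median of 5.79-fold. Replicate 1 had peaks at 45591608 to 45592205 (29 tags, 7.52-fold), 45912472 to 45913058 (25 tags, 4.25-fold) and 45986087 to 45986678 (26 tags, 4.42-fold). The nearest H3K4me1 regions were 6.9 kb, 34.8 kb and 108.4 kb away. The peak at 45912472 had a significance of 50.02 and a false discovery rate of 2.14%, the least significant values of its list. Replicate 2 had peaks at 45333485 to 45334098 (29 tags, 4.69-fold) and 45460009 to 45460682 (28 tags, 4.72-fold), with H3K4me1 115.8 kb and 23.7 kb away. None of these 5 peaks had a peak of the other list within 100 kb. Over the window, H3K4me1 lay within 1000 bp of 4 of the 7 replicate 1 peaks and 3 of the 6 replicate 2 peaks, where 67.6% and 63.5% of the whole lists had it. It lay within 1000 bp of 2 of the 5 peaks found in replicate 1 alone and 1 of the 4 found in replicate 2 alone, where 46.6% and 46.1% of such peaks did in the whole lists.

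H3K4me1 was concentrated on the Zeb2 side of the reference position. Both shared EP300 loci lay upstream, but the window was chosen for 1 of them and upstream is the longer side. Their placement against H3K4me1 therefore supports nothing further. The Zeb2 side makes up 270 kb of the window and held 28 of the 42 regions and 20.6 of the 27.25 kb covered. That is 10.4 regions per 100 kb and 7.63% of the sequence. The 1.03 Mb upstream held 14 regions and 6.65 kb, or 1.36 regions per 100 kb and 0.646% of the sequence. Upstream, 9 of the 14 regions lay in the groups beside the 2 shared loci. The longest stretches of the window without H3K4me1 were 277.4 kb, from 45599500 to 45876949, and 266.6 kb, from 45217700 to 45484349.

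Individual H3K4me1 regions of the window were mostly narrow and of ordinary rank. Their median width was 400 bp, against 500 bp in the whole list, and 19 of 42 ranked in the upper 50% of the list. The maximum log2 fold change had a median of 3.63 and ran from 3.25 to 4.97, with a list median of 3.72. There were 4 regions of at least 2000 bp, all on the Zeb2 side, which is 9.52% of the regions of the window, where 3.27% of the list was that wide.

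Of the 5 widest regions, 3 were also among the 5 best ranked. The region at 44882800 to 44885699 was both, at 2900 bp and rank 2199. Next in width came 44873850 to 44876399 (2550 bp, rank 6768), 44943900 to 44946199 (2300 bp, rank 12284), 44956150 to 44958349 (2200 bp, rank 4789) and 44941300 to 44942449 (1150 bp, rank 11250). The region of 2200 bp had the highest maximum log2 fold change of the window, 4.97. By rank, the first 5 also included the region at 45138650 and that at 44873100 to 44873699 (600 bp, rank 9351). The upstream side thus held 1 of the 5 best ranked regions and none of the 5 widest.

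Few H3K4me1 regions of the window met EP300, and few did in the whole list. Of the 42 regions, 6 overlapped a peak of either list (14.3%, exact Clopper-Pearson 95% interval 5.43% to 28.5%), where 18.7% of the whole list did. A shared locus was overlapped by 3 (7.14%, interval 1.498% to 19.5%), where 9.03% of the list met one, and these 3 were all upstream. Of these 3, the regions at 45211500 and 45213500 lay at the strong locus, for which the window was chosen. The intervals treat regions as independent although many lie close together, so they are no test against the list. None of the 4 regions of at least 2000 bp overlapped an EP300 peak, where 49.0% of the 1957 such regions of the list did. The region of 2200 bp came within 32 bp of the replicate 1 peak at 44958381. With 4 regions, a share this low says little about EP300 there.

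Joined over distances of up to 10 kb, the regions formed 13 islands, and the larger ones were on the Zeb2 side. The largest had 9 regions and 9550 bp of H3K4me1 over 21.4 kb, from 44940450 to 44961849, between 29.6 kb and 8.2 kb from the reference position. It held 1 peak of replicate 1 and no shared locus, whereas 63.1% of the 1043 islands of the genome with at least 9 regions held a shared locus. The next had 7 regions and 7050 bp over 17.7 kb, from 44872250 to 44889949, and held no EP300 peak of either list. Of the 1732 islands with at least 7 regions, 80.5% held a peak of either list and 53.3% held a shared locus. The island of 5 regions at 44808350 to 44826249 held the strongest replicate 2 peak found in that list alone and no shared locus, where 43.2% of islands with at least 5 regions held a shared locus. Upstream, the island of 6 regions at 45136450 held the weaker shared locus, where 48.5% of islands with at least 6 regions held one. The strong locus lay in an island of 3 regions and 1650 bp, where 29.2% of the 7036 islands with at least 3 regions held a shared locus.

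Set against 136 other windows of 1.3 Mb laid end to end along chromosome 2, the Zeb2 window was above the median in EP300 peaks, shared loci and H3K4me1, but not among the highest. It had 7 and 6 peaks, against medians of 4 in each list, and 30 and 47 windows had more. Its 2 shared loci compared with a median of 1 (0 to 13), and 42 windows had more. It had 42 H3K4me1 regions against a median of 28.5 (0 to 142), with 49 windows above it, and 27.25 kb covered against 15.75 kb, with 45 above it. In regions of at least 2000 bp it was higher up, with 4 against a median of 0, and 12 windows had more.

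Its strongest peak was high beside those of the other windows. No other window had a replicate 1 peak above 39.19-fold, and the median over the 124 other windows with a peak was 8.20-fold. In replicate 2 a single window was higher, at 32-fold, against 26.97-fold here and a median of 7.72-fold. By tags no window was higher in either list, with maxima elsewhere of 301 and 399. There were 94 other windows with at most 2 shared loci, and their highest tag counts in any peak were 195 in replicate 1 and 208 in replicate 2, against 310 and 409 here. Their highest fold enrichments, 39.19 and 25.33, were close to the 42.25 and 26.97 here. Because the window was proposed for this peak, these comparisons carry no test.

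**Figure D4:**
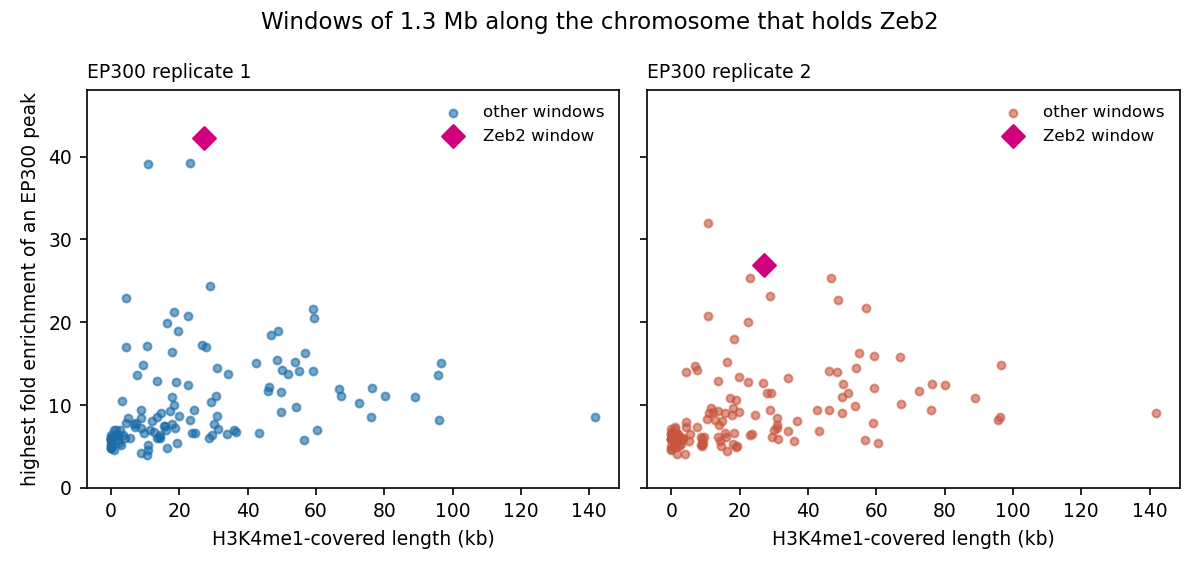
Windows of 1.3 Mb along chromosome 2, as the highest fold enrichment of an EP300 peak in each replicate (vertical axis) against the H3K4me1-covered length in kb (horizontal axis). Windows with no EP300 peak in that list are left out. The diamond is the Zeb2 window, at 42.25-fold in replicate 1 and 26.97-fold in replicate 2 with 27.25 kb of H3K4me1.

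The limits of the window cut through no peak or region. Just inside its lower limit was the replicate 1 peak at 44784140, 84.1 kb from the limit, and just outside lay the replicate 1 peak at 44485462 to 44486566 (71 tags, 8.06-fold), 213.4 kb away. At the upper limit the replicate 1 peak at 45986087 was 13.3 kb inside, and a peak of 26 tags and 5.16-fold enrichment was 118.2 kb outside. For replicate 2 the nearest peaks were 124.6 kb inside and 213.3 kb outside the lower limit, and 539.3 kb inside and 346.4 kb outside the upper one. For H3K4me1 the nearest regions were 29.2 kb inside and 213.1 kb outside the lower limit, and 122.4 kb inside and 299 kb outside the upper one.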

How the data were processed

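EP300 peaks had been called by the authors with MACS 1.4.1 (20110627), for each replicate against its own control, at a p-value threshold of 1e-05, per the file headers. Each deposited EP300 peak carries a count of tags, a significance score, a fold enrichment and, in percent, a false discovery rate. The deposited H3K4me1 list gives a rank, a score, a maximum log2 fold change, a -log10 p-value and a false discovery rate as a fraction. For its caller, and for the aligner, the sources used here give no name. The build is mm9, per the submitters' processing notes.

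Members were the rows overlapping chromosome 2, 44700000 to 46000000. A shared locus merged overlapping peaks (1 bp or more) of both EP300 lists, with the centre halfway along the stretch that its best-ranked peaks have in common. H3K4me1 distances, islands and windows were computed with Python 3.11.15, numpy 2.4.6 and pandas 2.3.3 (intervals: scipy 1.17.1), with interval functions tested on simulated data. Members and lists were chosen with earlier results of these data known. Alternatives covered thresholds, overlap, distances, windows and each replicate. Named were all EP300 members, the 5 widest and the 5 best ranked H3K4me1 regions, with flanks of EP300 peaks. Promoters came from RefSeq (4 of Zeb2 matched by symbol). Related genes were not compared, since an annotation of mm9 was not used here. No test was run.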

Additional observations from a re-analysis of the deposited data

How the results depend on the processing

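In the upper 50% of each EP300 list, 1 of the 7 replicate 1 peaks, 3 of the 6 replicate 2 peaks and 1 of the 2 shared loci remained in the window. Without replicate 1 or without replicate 2, with every peak of the remaining list in place of shared loci, the number of loci was 6 to 7. The share of other windows with more loci was then 22.1% to 34.6%, against 30.9% in the main comparison. An H3K4me1 gap held the centre of 50% of the 2 shared loci. It was 0% with H3K4me1 required within 500 bp, and 100% within 2000 bp, which follows from flanks that lie 737 bp and 1041 bp away. In the upper 50% of H3K4me1 regions 19 of the 42 remained. For the stretch upstream of the reference position alone, 58.5% of windows of that size had more H3K4me1, against 33.1% for the whole window, as most of its H3K4me1 lies on the Zeb2 side. H3K4me1 lay near 100% of the 2 shared loci, but near 50% of all replicate 2 peaks (without replicate 1) and 57.1% of all replicate 1 peaks (without replicate 2). A gap held the centre of 28.6% of the latter. With 2 loci the 95% binomial intervals, 15.8% to 100% and 1.26% to 98.7%, cover nearly any share, so staying within them says nothing about stability. The remaining alternatives moved counts by less than 1.5 times and shares of windows by less than their 95% binomial interval. The windows tile 1 chromosome and are not independent draws, so that interval served as a cut-off only and does not show stability. No paired analysis was possible because there is 1 sample for each antibody and no test. How deeply H3K4me1 was sequenced is unknown, and a missing peak or region does not show absence.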

Other observations

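Strong EP300 loci of chromosome 2 lay on both sides of the window as well. Of the 4 best-ranked shared loci of the chromosome, out of 273, the first was the locus upstream of Zeb2. The second lay 892 kb from the reference position toward lower coordinates, below the window, and the fourth lay 1538.4 kb upstream. The second, at 44077142 to 44079175, had 301 and 340 tags and 39.18-fold and 32-fold enrichment, with its centre in an H3K4me1 gap. The fourth, at 46507760 to 46508975, had 204 and 207 tags and 22.98-fold and 13.98-fold enrichment, with H3K4me1 on a single side of the centre. The third was elsewhere on the chromosome, at 132077750 to 132079466. This grouping was noticed after the values were seen and was not tested.

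The windows that follow upstream held less H3K4me1 than the median window of chromosome 2. Over the 136 windows other than that of Zeb2, the median was 28.5 regions and 15.75 kb. The lower quartile was 8 regions and 3.39 kb, below the values of the first window that follows. Windows without an H3K4me1 region were also found elsewhere, such as that from 16.1 Mb to 17.4 Mb. The window from 46 Mb to 47.3 Mb held 13 replicate 1 and 6 replicate 2 peaks, 3 shared loci and 10 H3K4me1 regions covering 4.45 kb. From 47.3 Mb to 48.6 Mb there were 1 and 2 EP300 peaks, no shared locus and no H3K4me1 region.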
